A study of Mus musculus with 12 samples.

Results

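Collagens are the proteins of the fibres and sheets that surround the cells of the dorsal root ganglion, where sensory neurons have their cell bodies. The genes described here are the protein-coding genes whose symbol is Col, a number, the letter a and a number, and 44 of the 21595 protein-coding genes with a listed transcript met this rule (35583 genes of any type). Their RNA was measured by poly(A) sequencing in ganglia of mice 24 weeks old, either wild type (WT) or YAC Q84. The latter model spinocerebellar ataxia type 3 through a transgene, a yeast artificial chromosome with human ATXN3 whose CAG repeat is expanded. There were 3 libraries from WT males, 3 from WT females, 1 from a Q84 male and 5 from Q84 females. The labels name no other allele or treatment. Whether libraries and animals correspond 1 to 1 is not stated in them, and p-values therefore refer to variation among libraries. The depth was 66490481 to 86891563 estimated counts.

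The labels of 2 libraries go against an Atxn3 transcript of 1000 bases. It was between 62.7 and 79.4 TPM (a transcript level scaled to length and to the whole library) in 5 libraries labelled Q84 and between 0 and 0.285 TPM in 5 labelled WT. The library labelled WT female 2 held 34.0 TPM and the library labelled Q84 female 5 held 0.0612 TPM. No library was moved to the other group. Every comparison of genotype is given for the 12 libraries as labelled and for the 10 left without this pair, whose values are also shown apart.

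Collagen chains wind around each other as trimers of like or unlike chains, and the winding needs a glycine at the first place of each repeated Gly-X-Y triplet. Fibrillar collagens (type I, III, V and XI among others) have one long unbroken helix and pack into fibres, while the type IV chains of basement membranes have many interruptions and form flexible sheets. Fibril-associated collagens sit on the fibres, type VI chains form beaded filaments, type VIII and X form short-chain networks, multiplexins (XV and XVIII) lie in or near basement membranes, and some collagens cross the plasma membrane. In a ganglion, fibroblasts, cells of the nerve sheaths and vessel walls, Schwann cells and satellite glia surround the neurons. The 44 genes comprised 11 fibrillar, 6 basement membrane, 6 beaded filament, 9 fibril-associated, 2 multiplexin, 3 short-chain network and 4 transmembrane collagens, and 3 others (Col7a1 of anchoring fibrils, Col26a1 and Col28a1).

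The difference between the classes can be read in the coding sequences, shown here for the 3 collagens of highest level, for a basement membrane chain and for 2 chains that return below. Each line gives 63 bases, 5′ to 3′, of a coding transcript of GENCODE M21 with the codons for glycine in capitals. The first 5 lines begin where the longest unbroken Gly-X-Y repeat of the gene begins, and the line of Col4a1 crosses the end of its longest repeat, where the capitals leave their step of 9 bases.
Col1a2: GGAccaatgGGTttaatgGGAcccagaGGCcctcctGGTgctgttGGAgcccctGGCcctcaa
Col3a1: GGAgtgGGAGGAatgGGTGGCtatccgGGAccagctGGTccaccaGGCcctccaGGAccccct
Col28a1: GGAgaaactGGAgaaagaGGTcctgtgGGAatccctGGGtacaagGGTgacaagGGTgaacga
Col12a1: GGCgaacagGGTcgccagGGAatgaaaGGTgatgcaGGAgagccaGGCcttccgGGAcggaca
Col25a1: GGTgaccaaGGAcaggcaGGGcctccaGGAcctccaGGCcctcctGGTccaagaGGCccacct
Col4a1: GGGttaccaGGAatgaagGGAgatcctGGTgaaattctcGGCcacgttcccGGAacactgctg
A glycine opens every triplet in the first 5 lines, with 2 further glycines in Col3a1 (9 in all against 7), and the genes differ in how far this step runs. The longest unbroken repeat had 339 triplets in Col1a2 and 344 in Col3a1, the highest of the 44 genes. It had 40 triplets in Col4a1 and in Col25a1, 32 in Col12a1 and 28 in Col28a1, and the lowest was 23 in Col26a1. Over the classes, fibrillar chains had 216 to 344 triplets in their longest repeat and 2 to 3 repeats of 5 or more triplets. Basement membrane chains had at most 39 to 66 triplets in one stretch but 16 to 24 such repeats. Repeats covered between 7.64% (Col12a1) and 77.2% (Col1a2) of the codons.

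A few collagens held most of the signal. Levels between genes are compared in TPM, and because short listed transcripts with few reads can carry a high TPM, they are given over transcripts of 2500 bases or more, a limit chosen after the transcripts were seen. On that scale Col1a2, the alpha-2 chain of type I collagen, was at 15.0 ± 3.97 TPM and Col28a1, the type XXVIII chain known from peripheral nerve, at 13.8 ± 2.31 TPM (SD, n = 12). Col3a1, the type III chain, followed at 7.19 ± 2.09 TPM. Col1a2 was above Col28a1 in 7 of 12 libraries, so the order of this pair does not exceed their spread, whereas Col28a1 was above Col3a1, and Col3a1 above Col1a1, in 12 of 12. Together the leading 3 genes held 60.0% of the collagen TPM. Of the 44 genes, 12 were at 1 TPM or more and 15 were under 0.1 TPM.

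Further down, Col1a1, the alpha-1 chain of type I collagen, was at 2.99 ± 1.28 TPM, Col8a1 at 2.42 ± 0.578, Col4a1 at 1.97 ± 0.478, Col6a1 at 1.69 ± 0.339 and Col5a2 at 1.61 ± 0.348 TPM (SD, n = 12). These neighbours were close: Col1a1 was above Col8a1 in 7 of 12 libraries and Col6a1 above Col5a2 in 6 of 12. The remaining genes at 1 TPM or more were Col23a1, Col11a1, Col25a1 and Col14a1. Of chains best known from cartilage, Col2a1 was at 0.0571 TPM, Col9a1 at 0.0392, Col11a2 at 0.0173 and Col10a1 at 0.158 TPM, while Col11a1 (1.24) and Col9a2 (0.737) were higher. Col13a1, Col6a4 and Col17a1, a collagen of epithelial cells, were at 0.0148, 0.0117 and 0.0115 TPM, an order that does not exceed their spread, since Col6a4 was above Col17a1 in 5 of 12 libraries. Over all listed transcripts the order changed for some genes. Col28a1 then came first at 19.6 ± 3.81 TPM and Col1a2 second at 15.8 ± 4.07 TPM. Col12a1 stood at 6.85 ± 0.997 TPM and at the fourth place, because a transcript of 1784 bases held 86.3% of its TPM but 49.0% of its counts. With transcripts of 2500 bases or more it was at 0.881 ± 0.195 TPM and at place 13. Col6a3 moved from place 9 to 19, with 13.0% of its counts in transcripts under 2500 bases. Col15a1 moved from 7 to 24 and Col16a1 from 10 to 32, but such transcripts held 73.9% and 75.6% of their counts. For these 2 genes the limit leaves out most of the reads, so their low places depend on it.

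**Figure D1:**
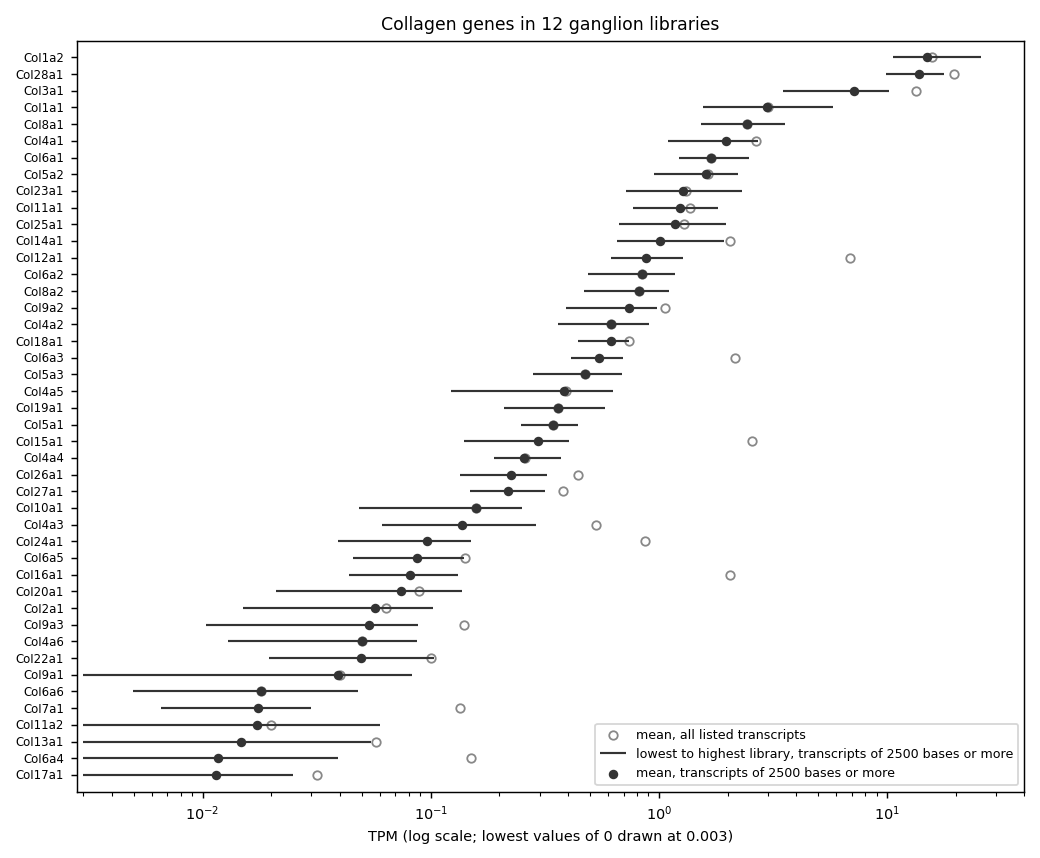
Levels of the 44 collagen genes in TPM on a log axis, ordered by their mean over 12 libraries from transcripts of 2500 bases or more (filled points, lines from the lowest to the highest library), with the mean over all listed transcripts as open points. Col1a2 and Col28a1 lead at 15.0 and 13.8 TPM, and the open point of Col12a1 lies far to the right of its filled one.

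The chains of one protein were not at equal levels. Type I collagen is known as a trimer with more alpha-1 than alpha-2 chains, yet the summed TPM of Col1a1 was 0.194 ± 0.0462 times that of Col1a2 (SD, n = 12) and lay between 0.123 and 0.263 in every library. Col4a1 was at 3.24 ± 0.356 times Col4a2, its partner in the most common type IV trimer, and Col6a1 at 2.04 ± 0.286 times Col6a2. Col5a2 was at 4.74 ± 0.775 times Col5a1. The scale matters for type IV: over all listed transcripts Col4a1 and Col4a2 had means of 2.65 and 0.619 TPM. The ratio of Col1a1 to Col1a2 was 0.184 ± 0.0528 in WT and 0.204 ± 0.0406 in Q84 libraries (SD, n = 6 each), a difference within the spread of each group. Kallisto shares reads among transcripts by likelihood, and whether the transcript set bears on these ratios was not tested.

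Libraries labelled Q84 held more counts from fibrillar and basement membrane collagens than libraries labelled WT, in the class sums as in most of their genes. Values from here on are CPM, counts scaled to library size with TMM factors, and sums over a class are descriptions without a test. In bulk tissue, more collagen-making cells and more RNA per cell cannot be told apart. The fibrillar sum had its lowest, median and highest value at 73.4, 99.9 and 120 CPM in WT and at 122, 134 and 177 CPM in Q84 libraries, with means of 96.0 ± 18.5 and 142 ± 20.9 (SD, n = 6 each). The groups did not overlap, by a narrow margin between WT female 1 and Q84 female 4, and the highest value was that of Q84 male 1. The class sums are not adjusted for sex, and more of the WT libraries are male. WT males had 106, 73.4 and 75.8 CPM of fibrillar collagens, WT females 94.1 to 120 and Q84 females 122 to 158. Most of the fibrillar means in WT and Q84 came from Col1a2 (46.3 and 66.25 CPM) and Col3a1 (23.6 and 37.6 CPM). The basement membrane sum was 13.5 ± 3.16 CPM in WT (9.62 to 16.6) and 19.7 ± 1.69 CPM in Q84 (17.9 to 22.6), again without overlap. Col4a1 alone made up 7.99 and 11.2 CPM of these means. Of the libraries whose Atxn3 transcript goes against the label, WT female 2 had 94.1 CPM of fibrillar and 16.1 of basement membrane collagens. Both values lay within the range of the other WT libraries. The basement membrane value was about midway between the means of the 10 libraries, 13.0 CPM in WT and 19.1 in Q84. Q84 female 5 had 158 and 22.6 CPM, the former within and the latter above the range of the other Q84 libraries.

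The other classes overlapped between the genotypes. Their means in WT and Q84 libraries were 11.2 and 12.6 CPM for beaded filament, 23.0 and 25.2 for fibril-associated and 10.2 and 12.8 for short-chain network collagens. They were 5.55 and 5.29 CPM for multiplexin and 10.6 and 9.98 for transmembrane collagens. The class of Col7a1, Col26a1 and Col28a1 had 41.4 and 44.7 CPM. The transmembrane sum was 19.2 CPM in Q84 female 5, while the other 11 libraries ran from 6.81 to 13.4. Over all 44 genes the sum was 211 ± 29.5 CPM in WT and 272 ± 30.0 in Q84 (SD, n = 6 each). Summed TPM over all listed transcripts gave 24.7 to 38.0 in WT and 39.2 to 58.8 in Q84 for the fibrillar class, without overlap, but 2.71 to 4.73 and 4.55 to 5.68 for the basement membrane class, which then overlapped.

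**Figure D2:**
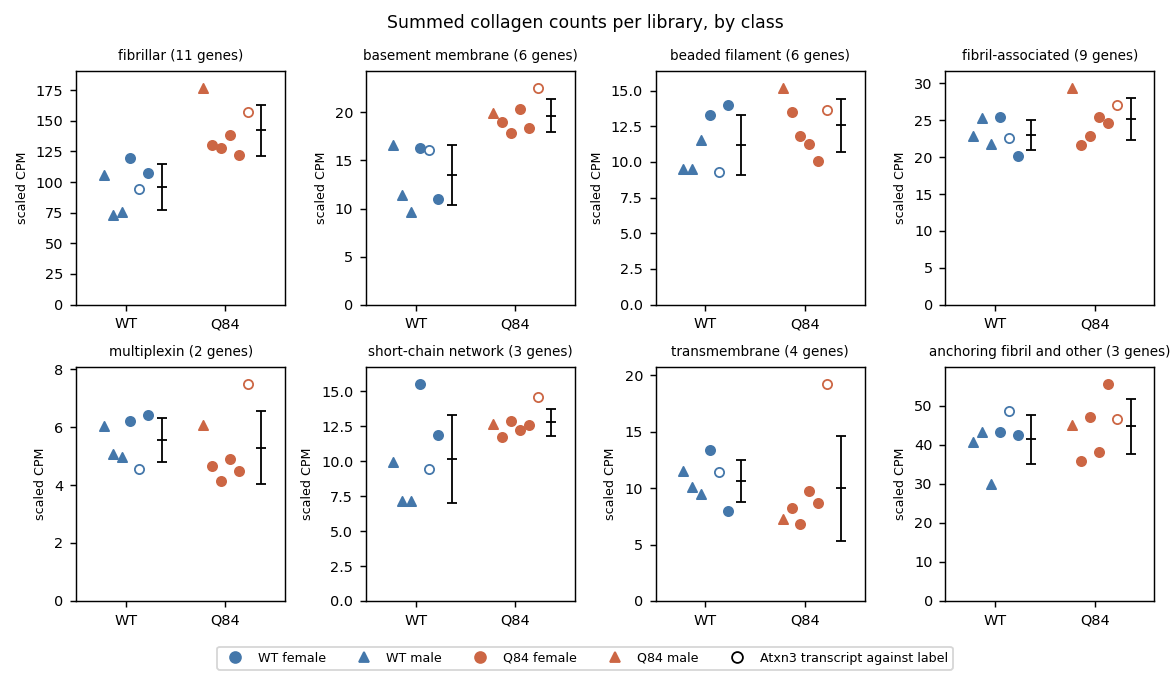
Summed CPM (TMM-scaled) of each collagen class, with the number of genes, in each library labelled WT or Q84; triangles are males, circles females, open symbols the libraries whose Atxn3 transcript goes against the label, and black marks the mean ± SD (n = 6 per group). Fibrillar and basement membrane sums do not overlap between the labels, and Q84 female 5 stands apart at 19.2 CPM in the transmembrane class.

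No collagen gene passed the test for genotype in either set of libraries. Of the 43 genes tested with edgeR's quasi-likelihood test (Col17a1 did not pass the filter on low counts), 0 had an adjusted p under 0.05 among 12 libraries, where 0.0053% of all genes passed, and 0 among 10 libraries, where 6.45% did (1.52% higher and 4.93% lower in Q84). Limma-voom gave 0 and 0 as well, whereas DESeq2 called 6 of 41 in 12 libraries, where it called 3.45% of all genes, and 7 of 43 in 10 libraries, where it called 10.1%. The 6 were Col1a2, Col3a1, Col4a2, Col4a5, Col5a2 and Col11a1, all higher in Q84. The 7 were Col1a2, Col4a2, Col5a2, Col11a1 and Col14a1, higher in Q84, and Col19a1 and Col25a1, lower.

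Below the threshold the genes leaned one way. The median log2 fold change of Q84 over WT was 0.36 over the 43 collagen genes and 0.01 over all 18875 genes tested in 12 libraries, and 32 of 43 collagen genes (74.4%) lay above 0, against 52.7% of all genes. In 10 libraries the medians were 0.22 and 0.01, and 30 of 43 (69.8%) lay above 0, against 52.3%. An unadjusted edgeR p under 0.05 was reached by 12 collagen genes that were higher and 0 that were lower among 12 libraries, where 14.3% of all genes reached that level (5.72% higher and 8.56% lower). Among 10 libraries it was reached by 11 higher and 2 lower, against 20.2% of all genes (8.01% higher and 12.2% lower). The 12 genes that were higher with such a p in 12 libraries included 5 of the 11 fibrillar and 5 of the 6 basement membrane collagens tested.

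The lean was smaller without the single Q84 male. In that case the collagen genes that were higher at an unadjusted edgeR p under 0.05 numbered 6 of 40 in 12 libraries (15%, against 3.91% of all genes) and 1 of 40 in 10 libraries (2.5%, against 5.46%). The collagen median then fell to 0.16 and 0.06, with 29 and 23 of 40 genes above 0. In the same fits the median of the basement membrane class was 0.48 and 0.54 and that of the fibrillar class 0.37 and 0.17. Female libraries alone, which leave out the WT males as well, had 7 of 38 such genes in the larger set (18.4%, against 4.19% of all genes). Without the doubtful pair they had 4 of 38 (10.5%, against 8.02%). The fibrillar median was then 0.37 and 0.19 and the basement membrane median 0.48 and 0.56. Q84 male 1 also held the highest summed markers of fat (74.1 CPM, others 3.45 to 28.4), skeletal muscle (918 CPM, others 4.05 to 587) and red blood cells (1826 CPM, others 173 to 1267), and their part in the collagen values was not tested. WT female 1 had epithelial keratin markers that summed to 234 CPM against at most 7.27 elsewhere. Without both WT female 1 and Q84 male 1, 5 of 40 collagen genes in 12 libraries were higher at that level (12.5%, against 3.22% of all genes). In 10 libraries 5 of 41 were (12.2%, against 4.23%), and none was called in either set. They included 3 of 10 fibrillar genes in 12 libraries and 0 of 10 in 10 libraries, and 2 of 6 and 4 of 6 basement membrane genes.

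**Figure D3:**
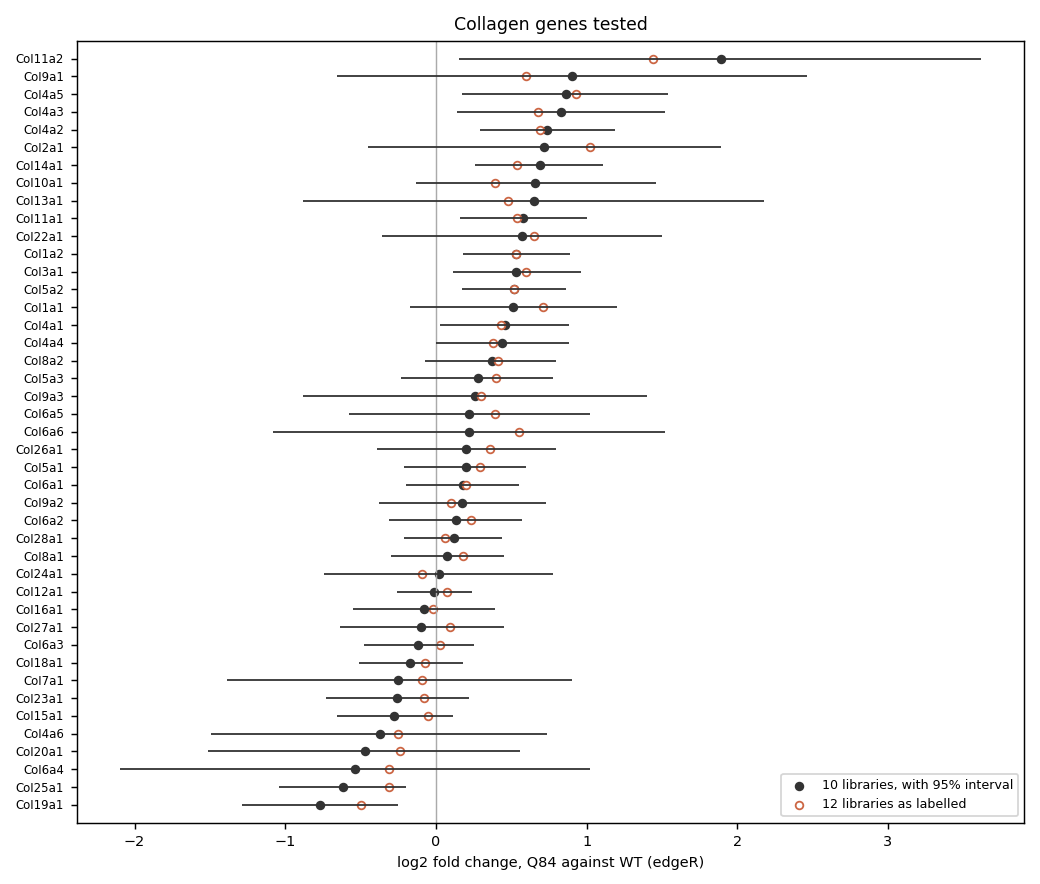
Log2 fold change of Q84 over WT for the 43 collagen genes tested with edgeR, ordered by the fit of 10 libraries (filled points with 95% intervals), with the fit of 12 libraries as open points. Most points lie to the right of 0, intervals of rarely read genes are wide, and none passed an adjusted p of 0.05.

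Among fibrillar chains, 10 of 11 had a log2 fold change above 0 in both sets of libraries, with a median of 0.53 in 12 and 0.52 in 10. Col5a2, a type V chain that takes part in starting fibres, had its lowest, median and highest value at 4.09, 6.54 and 7.19 CPM in WT and at 8.09, 9.25 and 9.66 CPM in Q84 libraries. All Q84 libraries were above all WT libraries, which held for 2 of 43 collagen genes (Col5a2 and Col4a2) and 0.413% of all genes in 12 libraries, while 0 of 43 and 1.15% of all genes had the opposite order. Q84 against WT gave a log2 fold change of 0.52 ± 0.134 (SE; edgeR adjusted p = 0.129) in 12 libraries and 0.52 ± 0.156 (adjusted p = 0.0781) in 10, and 0.30 in the latter without Q84 male 1.

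Col1a2 had 37.8, 46.9 and 56.8 CPM as lowest, median and highest value in WT and 53.8, 62.3 and 90.8 CPM in Q84. The groups overlapped only through WT female 1, which was above Q84 female 2, and the highest value was that of Q84 male 1. Its log2 fold change was 0.53 ± 0.137 (SE; edgeR adjusted p = 0.131) in 12 and 0.53 ± 0.161 (adjusted p = 0.0802) in 10 libraries, and it was 0.20 in 10 libraries without Q84 male 1. Col3a1 had 14.5, 23.3 and 34.8 CPM in WT and 33.4, 38.7 and 41.0 CPM in Q84. Its Q84 values were close together while its WT values spread widely, and WT female 3 reached into the Q84 range. For Col3a1 the log2 fold change was 0.60 ± 0.166 (SE; edgeR adjusted p = 0.140) in 12 and 0.53 ± 0.191 (adjusted p = 0.139) in 10 libraries, and 0.19 in the latter without Q84 male 1.

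The other fibrillar chains were Col1a1 (0.71 and 0.51 on the log2 scale in 12 and 10 libraries), Col11a1 (0.54 and 0.58), Col5a3 (0.40 and 0.28), Col5a1 (0.29 and 0.20), Col27a1 (0.09 and -0.10) and Col24a1 (-0.09 and 0.02). Col2a1 and Col11a2, the cartilage chains, had 1.02 and 0.72, and 1.44 and 1.89, but at mean counts of 14.6 and 5.50 per library their 95% intervals in 10 libraries ran from -0.45 to 1.89 and from 0.15 to 3.62. Col11a1, which joins type V chains in mixed fibrils, was the fibrillar gene besides Col5a2 whose groups did not overlap in 10 libraries.

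Of the 6 basement membrane chains, 5 lay above 0, with a class median of 0.56 in 12 and 0.60 in 10 libraries. Col4a2 had 1.55, 2.17 and 2.65 CPM as lowest, median and highest value in WT and 2.67, 3.84 and 3.93 CPM in Q84. Every Q84 library was above every WT library, with almost no gap between WT female 1 and Q84 female 2. Col4a2 had a log2 fold change of 0.69 ± 0.182 (SE; edgeR adjusted p = 0.134) in 12 and 0.74 ± 0.207 (95% interval 0.29 to 1.19, adjusted p = 0.0564) in 10 libraries. It had the smallest adjusted p of the collagen genes in 10 libraries and was at 0.60 without Q84 male 1.

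Col4a1, which lies head to head with Col4a2 in the genome and forms trimers with it, had 4.97, 8.18 and 10.3 CPM in WT and 9.90, 11.1 and 13.8 CPM in Q84. WT female 1 was above the lowest Q84 libraries, and Q84 female 5 was the highest of all. Its log2 fold change was 0.43 ± 0.179 (SE; edgeR adjusted p = 0.292) in 12 and 0.46 ± 0.196 (adjusted p = 0.218) in 10 libraries. Col4a3, Col4a4 and Col4a5, the chains known from the kidney filter, had 0.68, 0.38 and 0.93 on the log2 scale in 12 libraries and 0.83, 0.44 and 0.86 in 10. Col4a6 was at -0.25 and -0.37, with a mean count of 11.7 per library. With length-scaled TPM in place of counts, the class median was 0.34 in 12 and 0.35 in 10 libraries. In each set 2 of 6 genes were then higher at an unadjusted edgeR p under 0.05, where counts gave 5 of 6. Of all genes, 5.81% and 7.59% were higher at that level with length-scaled TPM.

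**Figure D4:**
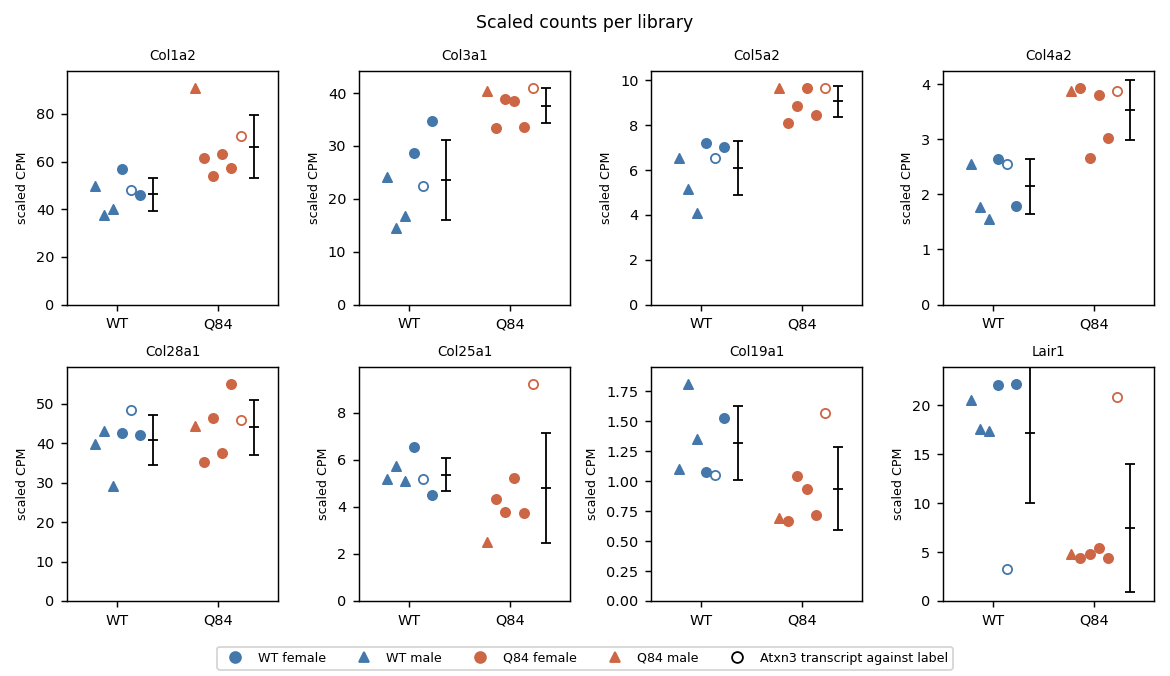
CPM (TMM-scaled) of 7 collagen genes and of Lair1 in each library; triangles are males, circles females, open symbols the libraries whose Atxn3 transcript goes against the label, black marks the mean ± SD (n = 6 per group). Col5a2 and Col4a2 do not overlap between labels, Col28a1 overlaps widely, and in Lair1 the open symbols lie with the opposite label.

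Fibril-associated collagens lay on both sides of 0, and edgeR called 0 of the 9, while DESeq2 called Col14a1 and Col19a1 in 10 libraries. Col14a1, which binds to type I fibres, had 3.50, 4.58 and 6.56 CPM as lowest, median and highest value in WT and 5.86, 6.48 and 10.6 CPM in Q84. In 12 libraries the groups overlapped through WT female 2, the highest WT library, and without the pair of doubtful libraries all Q84 were above all WT libraries, as in 4 of 43 collagen genes (Col4a2, Col5a2, Col11a1 and Col14a1) and 2.71% of all genes. The fitted log2 fold change was 0.54 ± 0.188 (SE; edgeR adjusted p = 0.218) in 12 and 0.69 ± 0.196 (adjusted p = 0.0616) in 10 libraries, and 0.26 in the latter without Q84 male 1.

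Col19a1, a fibril-associated chain known from neurons and muscle, went the other way, with 1.05, 1.23 and 1.81 CPM in WT and 0.665, 0.824 and 1.57 CPM in Q84. Q84 female 5 alone among the Q84 libraries lay within the WT range, and in 10 libraries Col19a1 was the 1 collagen gene of 43 whose Q84 values were all below the WT values, as for 5.96% of all genes. Its log2 fold change was -0.50 ± 0.269 (SE; edgeR adjusted p = 0.427) in 12 and -0.77 ± 0.240 (adjusted p = 0.0861) in 10 libraries. Col12a1, which also binds to fibre surfaces, had 11.6, 14.1 and 16.5 CPM in WT and 11.6, 14.1 and 15.3 CPM in Q84, at 0.07 and -0.01 on the log2 scale with a 95% interval of -0.26 to 0.24 in 10 libraries. Col16a1 had medians of 0.965 and 1.03 CPM. Its log2 fold change was -0.02 and -0.08, and it turned positive under several of the alternatives.

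The summed transmembrane collagens had a lower mean in Q84 among the 10 libraries, 10.5 ± 2.05 CPM in WT and 8.14 ± 1.16 in Q84 (SD, n = 5 each). The ranges overlapped (7.96 to 13.4 and 6.81 to 9.75 CPM), and nearly all of the sum came from Col25a1 and Col23a1. Col25a1, a neuronal membrane collagen whose shed part is found in amyloid plaques, had 4.49, 5.18 and 6.54 CPM in WT and 2.51, 4.05 and 9.21 CPM in Q84. Both the lowest and the highest value were in Q84 libraries, Q84 male 1 and Q84 female 5. Its log2 fold change was -0.31 ± 0.273 (SE; edgeR adjusted p = 0.657) in 12 and -0.62 ± 0.193 (adjusted p = 0.0873) in 10 libraries, and in the latter it was -0.37 without Q84 male 1 and -0.08 without Q84 male 1 and WT female 1. Col23a1 had 3.38, 5.23 and 6.59 CPM in WT and 2.92, 4.42 and 9.83 CPM in Q84, with Q84 female 5 again on top, and log2 fold changes of -0.08 and -0.26. Col13a1 went the other way, with log2 fold changes of 0.48 and 0.65 at a mean count of 5.70 per library. Col17a1 was at 0.112 CPM or less everywhere.

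Of the remaining collagens the abundant Col28a1 differed little, with 29.2, 42.3 and 48.3 CPM as lowest, median and highest value in WT and 35.3, 45.1 and 54.9 CPM in Q84. The groups overlapped over most of their range. On the log2 scale the fold change was 0.06 in 12 and 0.12 in 10 libraries, with 95% intervals of -0.21 to 0.34 and -0.21 to 0.44, which leave out a change of the size seen in Col4a2. Col26a1, a secreted protein with short repeats, had medians of 0.418 and 0.538 CPM and log2 fold changes of 0.36 and 0.20, which turned to -0.05 and -0.30 with length-scaled TPM, and Col7a1 had -0.09 and -0.25 at a mean count of 9.25.

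Type VI chains, which form the beaded filaments around cells, overlapped throughout. Col6a1 had 3.62, 4.36 and 5.60 CPM in WT and 4.05, 4.89 and 6.61 CPM in Q84, and Col6a3 had 2.92, 3.60 and 4.78 CPM in WT and 3.11, 3.79 and 5.05 CPM in Q84. Their log2 fold changes were 0.20 and 0.03 in 12 and 0.18 and -0.12 in 10 libraries. Col6a2 was at 0.23 and 0.13, and Col6a4, Col6a5 and Col6a6 had mean counts of 8.43 to 44.5. The short-chain Col8a1 had 5.16, 7.04 and 12.6 CPM in WT and 8.88, 9.35 and 11.1 CPM in Q84, and WT female 1 was the highest library of all. Col8a2, its partner in type VIII networks, had 1.35, 2.08 and 2.63 CPM in WT and 2.49, 2.83 and 3.21 CPM in Q84. Their log2 fold changes were 0.18 and 0.41 in 12 and 0.07 and 0.37 in 10 libraries. Among multiplexins Col15a1 had medians of 3.28 and 2.82 CPM and Col18a1, whose end is released as endostatin, of 2.13 and 2.10 CPM, and both were highest in Q84 female 5. Their log2 fold changes were -0.05 and -0.07 in 12 and -0.28 and -0.17 in 10 libraries.

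Sex was compared in the same fit of 12 libraries. Of 43 collagen genes 0 passed with edgeR (0.0636% of all genes did, 0.0477% higher and 0.0159% lower in males), and DESeq2 called 0 of 44 (0.105% of all genes). An unadjusted edgeR p under 0.05 was reached by 0 collagen genes that were higher and 1 that was lower in males, beside 3.82% of all genes (2.08% and 1.74%). That gene was Col8a1, with a log2 fold change of -0.46, and without Q84 male 1 there were 5 such genes of 40. The median log2 fold change of males over females was -0.08 over collagen genes and -0.003 over all genes. The test of whether the genotype difference differed by sex called 0 of 43 (0.0424% of all genes) with edgeR, and 5 had an unadjusted p under 0.05 (5.21% of all genes): Col1a2, Col3a1, Col6a1, Col11a2 and Col14a1. The smallest adjusted p was 0.394 for Col14a1. The Q84 males are 1 library, so this test reads the same library that was highest in Col1a2 and Col14a1.

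The libraries whose Atxn3 transcript goes against the label did not line up in the same way for every collagen. WT female 2 was nearer to the mean of its own label than to that of the other label in 26 of 44 genes, and Q84 female 5 in 29 of 44. Q84 female 5 was the highest of the 12 libraries in 13 genes, among them Col3a1, Col4a1, Col4a5, Col15a1, Col18a1, Col23a1 and Col25a1.

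Lair1, a receptor by which immune cells bind collagen, was arranged otherwise. It had 20.6, 17.6, 17.4, 22.05 and 22.2 CPM in WT males 1 to 3 and WT females 1 and 3, and 4.80, 4.43, 4.83, 5.42 and 4.35 CPM in Q84 male 1 and Q84 females 1 to 4. WT female 2 held 3.25 CPM and Q84 female 5 held 20.8 CPM, each within or beyond the range of the opposite label. Lair1 fell by 2.12 ± 0.111 (SE) on the log2 scale in 10 libraries (edgeR adjusted p = 7.61e-07) and was at -1.24 in 12 (adjusted p = 0.382).

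The machinery that makes collagen was read from lists of other genes. Of 21 listed genes of collagen synthesis and folding (prolyl and lysyl hydroxylases, chaperones and export factors), 0 passed in 12 or 10 libraries with edgeR, and the median log2 fold change was 0.08 and 0.10. In 10 libraries 14 of the 21 lay above 0. The 2 of smallest p were lower in Q84, Tango2 (-0.22, edgeR adjusted p = 0.0546) and P4ha2 (-0.41, edgeR adjusted p = 0.111). Serpinh1, the collagen chaperone HSP47, was at 28.1 ± 6.70 CPM in WT and 30.0 ± 7.26 in Q84 (SD, n = 5 each). Beside the counts of the next lists in 10 libraries, 1.52% of all genes were called higher and 4.93% lower. Of 17 genes of processing and cross-linking 1 rose and 1 fell: Fkbp14, a prolyl isomerase of the endoplasmic reticulum, rose by 0.42 (46.3 ± 3.42 to 62.6 ± 3.74 CPM, edgeR adjusted p = 0.00951), and Pcolce2, which aids removal of the C-terminal propeptide, fell by 0.59 on the log2 scale (36.0 ± 2.07 to 23.8 ± 1.41 CPM, adjusted p = 0.00119). Without WT female 3 Fkbp14 missed the threshold at a fold change as large (0.40). Of 16 genes of collagen breakdown and its inhibitors 0 passed, with the smallest p for Mmp2 (0.44, edgeR adjusted p = 0.122). Of 12 collagen receptors Lair1 alone passed, and the list's median was -0.04. In 12 libraries 0 genes of any of these lists passed with edgeR.

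Partners of collagens in basement membranes and matrix were read in the same way. Of 18 other basement membrane proteins 3 rose and 1 fell in 10 libraries, beside 1.52% and 4.93% of all genes, with a median log2 fold change of 0.26: the laminin chains Lama2 (0.62, edgeR adjusted p = 0.00959) and Lamc1 (0.58, adjusted p = 0.0113) and the linker nidogen Nid1 (0.43, adjusted p = 0.0212) rose, and Lama3 (-0.80, adjusted p = 0.0264) fell. Lama2 had 21.4 ± 2.08 CPM in WT and 31.1 ± 6.63 in Q84, and Lamc1 16.9 ± 1.11 and 24.6 ± 4.28 (SD, n = 5 each). Without Q84 male 1 none of these 4 passed, with Lama2 at 0.39 and Lamc1 at 0.36, and Nid1 did not pass without WT female 3 either. Of 11 small leucine-rich proteoglycans Prelp rose (0.68, edgeR adjusted p = 0.0137), and of 19 other matrix proteins Thbs2 rose (0.77, adjusted p = 0.0244). Of 19 genes of TGF-beta signalling, the pathway that drives collagen genes in fibroblasts, the matricellular Ccn1 (1.25, edgeR adjusted p = 0.0326) and the latency protein Ltbp1 (0.51, adjusted p = 0.0294) rose. Prelp, Thbs2 and Ltbp1 did not pass without Q84 male 1, nor Thbs2 without WT female 3. Of 10 fits that each left out 1 library, Ccn1 did not pass in 7, Lama3 in 6 and Ltbp1 in 5. The medians of these 3 lists were 0.25, 0.11 and 0.21, beside 0.01 over all genes.

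Marker genes of the cells that make collagen moved unevenly beside these values. Beside the marker calls and signs in 10 libraries, 1.52% of all genes were called higher and 4.93% lower, and 52.3% lay above 0. Fibroblast markers summed to 1252 ± 152 CPM in WT and 1343 ± 95.1 in Q84 libraries (SD, n = 5 each). Of 14 genes 8 lay above 0 in both sets (median 0.13 in 12 and 0.07 in 10 libraries). Pdgfra rose (0.61, edgeR adjusted p = 0.00303) and Cd34 fell (-0.87, adjusted p = 0.00771) in 10 libraries. Mural cell markers summed to 437 ± 73.2 CPM in WT and 223 ± 27.5 in Q84, a sum made up mostly of Rgs5, which fell from 381 ± 74.4 to 147 ± 7.72 CPM (-1.38, edgeR adjusted p = 7.99e-05). Of the 11 mural markers 9 had a log2 fold change above 0 in 10 libraries (median 0.54) and 10 in 12 libraries (median 0.59), and Abcc9 rose (0.85, edgeR adjusted p = 0.0182 in 10). Without Q84 male 1 Pdgfra (0.47) and Abcc9 (0.67) did not pass, nor Abcc9 without WT female 3. The libraries set apart held 310 (WT female 2) and 510 CPM (Q84 female 5) of mural markers. The tendon markers Tnmd (1.68, edgeR adjusted p = 0.000451) and Scx (-1.41, adjusted p = 0.00498) went opposite ways. Schwann cell markers summed to 3784 to 5623 CPM in WT and 3110 to 4835 in Q84 libraries, perineurial markers to 120 to 170 and 133 to 169, endothelial markers to 128 to 180 and 146 to 186, and sensory neuron markers to 7039 to 9108 and 6875 to 7541 (n = 6 each). Of sensory neuron markers 10 of 11 lay below 0 in both sets (median -0.18), and Pou4f1 fell (-0.78) in 10 libraries. Of 9 meningeal markers 3 lay above 0, the transcription factors Foxc1 (0.53), Foxd1 (0.59) and Foxp1 (0.53 in 12 libraries), and in these all Q84 libraries were above all WT libraries, as in 0.413% of all genes. Macrophage markers lay above 0 in 8 of 9 (median 0.22 in 10 libraries), muscle markers in 8 of 8 (median 2.46), fat markers in 7 of 7 (median 1.70), red blood cell markers in 5 of 5 (median 1.34) and satellite glia markers in 2 of 8 (median -0.10). In 10 libraries the perineurial Cldn1 rose (0.71), and Scn7a (-0.56) and Ngfr (-0.96) of Schwann cells fell, and these 3 passed in each of 10 fits that left out 1 library. Calls of single genes that were lost in some of these fits were the fat gene Retn (2.25, lost in 8 of 10), Ibsp of bone (-0.73, lost in 3 of 10), Pou4f1 (lost in 2 of 10) and the keratins Krt1 (-2.74, lost in 7 of 10), Krt13 (lost in 8 of 10), Krt14 (lost in 4 of 8) and Krt15 (lost in 6 of 8). All 4 keratins were highest in WT female 1, and Krt1 passed without it. Lists of meningeal, endothelial, satellite glia, macrophage, muscle and red blood cell markers had 0 calls with edgeR, as had every marker list in 12 libraries. The part of any of these in the collagen values was not tested. Mitochondrial genes held 6.85 to 9.55% of counts in WT and 8.91 to 11.9% in Q84 libraries.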

How the data were processed

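Per the labels' protocols, libraries were made from poly(A) RNA of ganglia. The submitters' processing notes name kallisto 0.46.2, STAR 2.7.10b and GRCm39 without their roles. Per the file headers, the deposited tables give for 116313 transcripts an estimated count, which the authors did not scale between libraries, a transcript length and effective length, and the authors' TPM, scaled to length and a fixed total. Transcripts were assigned to genes by Ensembl identifier in GENCODE M21 (GRCm38), and 98.3% matched; the rest held 0.751 to 0.804% of counts and was left out. Coordinates are omitted, as the builds differ.

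Gene sums of the estimated counts were rounded, filtered with filterByExpr, scaled with TMM and tested in R 4.3.3 with edgeR 4.0.16 (robust quasi-likelihood, terms for sex and genotype, Benjamini-Hochberg over all genes, threshold 0.05), checked on simulated data. DESeq2 1.42.0, limma 3.58.1 (voom), other scalings and filters, length-scaled TPM, females alone, the replicate number as a block, and leaving out single libraries were alternatives. Intervals use the fit's degrees of freedom. Gly-X-Y repeats are GGN codons at every step of 9 bases in 1 coding transcript per gene.

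Members, lists, classes and the 10-library set were chosen with earlier results of these data known. Values by library are given for members called, for the 2 of highest summed TPM in each class and for the 4 of smallest p per direction in 10 libraries; of other lists, members called or up to 2 of smallest p are named, and Serpinh1 was chosen after its values were seen. Class totals were planned in TPM and are given in CPM beside it. No 2 libraries of a group agreed within sampling noise (chi-square per degree of freedom 30.9 or more).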

Additional observations from a re-analysis of the deposited data

Results flagged for a closer look

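In 4 of 54 groups of libraries examined (each named collagen gene and each class sum, by genotype label), 1 library lay far from the others for the size of the group. Chance gives about 1 in 20 for a single group. The groups are not independent, because the class sums contain the named genes, so the count is not set against that rate. Col4a1 was at 13.8 CPM in Q84 female 5, where the other Q84 libraries ran from 9.90 to 11.3 CPM. Col23a1 was at 9.83 CPM in the same library and between 2.91 and 4.74 CPM in the others, and the summed transmembrane collagens were at 19.2 CPM there and between 6.81 and 9.75 CPM in the others. Col14a1 was at 10.6 CPM in Q84 male 1 and between 5.86 and 6.93 CPM in the other Q84 libraries.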

How the results depend on the processing

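The count of collagen genes called stayed at 0 in 12 and 10 libraries with other scaling factors, no filter, limma-voom, length-scaled TPM, female libraries alone, or without WT female 1 and Q84 male 1 together. DESeq2 called 6 in 12 and 7 in 10 libraries. Leaving out 1 library gave 0 to 1 calls in 12 libraries (Col5a2 without Q84 female 5) and 0 to 4 in 10: Col1a2, Col4a2, Col4a5 and Col14a1 without WT female 1, Col4a2 and Col5a2 without WT male 1, and Col25a1 (lower) without WT female 3. For sex the count was 0 in every alternative run, and the interaction was fitted once. With the replicate number as a block 0 collagen genes were called in both sets, while calls over all genes went from 1 to 639 in 12 and from 1208 to 701 in 10 libraries; same-numbered libraries correlated between -0.189 and 0.295, over 0.1 in 5 of 9 pairs, so the numbers are not taken as pairs. Several genes changed sign, Col23a1, Col25a1 and Col26a1 among them, and the cause was not tested. In 12 libraries length-scaled TPM gave Col6a3 -0.06, Col16a1 0.02, Col18a1 0.10 and Col26a1 -0.05; females alone gave Col6a1 0.00, Col6a3 -0.10, Col16a1 0.14 and Col28a1 -0.01; the block gave Col6a3 -0.03 and Col28a1 -0.02; and without WT female 1 and Q84 male 1 Col6a3 was -0.04, Col16a1 0.26, Col23a1 0.11, Col25a1 0.12 and Col28a1 -0.04. Over fits that each left out 1 library, the values ran from -0.11 to 0.14 for Col6a3, -0.10 to 0.14 for Col16a1, -0.19 to 0.04 for Col15a1, -0.34 to 0.04 for Col23a1, -0.01 to 0.32 for Col6a1 and -0.01 to 0.12 for Col28a1. In 10 libraries length-scaled TPM gave Col12a1 0.09 and Col26a1 -0.30; females alone gave Col6a1 -0.11, Col8a1 -0.23 and Col16a1 0.14; the block gave Col28a1 -0.01; and without the pair of libraries Col6a1 was -0.04, Col8a1 -0.02, Col12a1 0.14, Col16a1 0.29 and Col23a1 0.22. Leaving out 1 library there gave -0.08 to 0.09 for Col12a1, -0.44 to 0.06 for Col23a1, -0.12 to 0.31 for Col6a1, -0.25 to 0.28 for Col8a1 and -0.23 to 0.12 for Col16a1. Leaving out the pair of libraries and the limit of 2500 bases were chosen after seeing the data. Collagens with mean counts under 20 have intervals too wide to show a change of the size seen in Col4a2.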
